A study of Mus musculus with 16 samples.

Results

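Core microexons are internal exons of 3 to 30 bases. They were taken from the deposited table of splicing nodes (stretches of RNA that can be joined or skipped as a unit) as every node of the core exon type with a length in that range and a percent spliced in (Psi) value in both groups. This gave 875 of the 98533 core exon nodes and of the 125520 nodes of all types. The nodes covered 872 distinct coordinates in 710 genes. They were set against the 97651 core exons of 31 bases or more, while the 7 core exons under 3 bases were left out.

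The libraries were made from CD8+ T cells of OT-1 Tg C57BL/6J mice, whose transgenic receptor sees an ovalbumin peptide. Naive cells of both groups were electroporated with Cas9 and a guide RNA, either a scrambled guide (Control gRNA, n = 8) or one against Tardbp (Tardbp gRNA, n = 8), and transferred into C57BL6/J recipients. Recipients of both groups received antigen with the agonist antibodies anti-OX40 and anti-41BB, and CD8+ T cells were sorted from spleen and lymph nodes after 4 days. The labels give each library a letter M or F for sex. Both letters occur in both groups, with more F in Control gRNA and more M in Tardbp gRNA. The edited cells were a mixed population and no clone, and Tardbp RNA was reduced rather than lost (values below). The paper reports from an immunoblot that cells given this guide made no Tardbp protein, so the RNA values do not measure the protein. Psi is the fraction of a gene's transcripts that include the node, and the table gives 1 Psi per group of 8 libraries with neither a spread nor a read depth, so a difference of Psi (Tardbp gRNA minus Control gRNA) is a description without a test.

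Microexons are best known from neurons, where the splicing factor Srrm4 and its relative Srrm3 promote their inclusion and the pyrimidine-tract binding protein Ptbp1 represses it. Most insert a few amino acids at the surface of a protein without shifting the reading frame, often in proteins of the cytoskeleton and of vesicle traffic. The product of Tardbp, TDP-43, binds UG-rich RNA and represses many weak exons.

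The first sequences show how little separates some microexons from each other. Each line gives the exon in capitals between the adjoining 20 bases of the upstream and of the downstream exon in lower case, read 5′ to 3′ on the transcript strand of a GENCODE M21 transcript (build GRCm38). The 3-base exons were chosen because the same letters recur in related genes, and the second one of Asxl2 because it can stand in the place of the first. Those of Clasp1 (chr1:118547656-118547658, plus strand, exon 29 of 42 of Clasp1-218) and Clasp2 (chr9:113887045-113887047, plus strand, exon 22 of 34 of Clasp2-203), which encode proteins that stabilise microtubule ends, have the same 3 letters. Asxl1 (chr2:153354650-153354652, plus strand, exon 3 of 13 of Asxl1-201) and Asxl2, chromatin proteins of the Polycomb group, share AAG, which in Asxl2 is the exon at chr12:3445452-3445454, while its second 3-base exon, at chr12:3450251-3450253, reads GTG (both plus strand, exon 3 of Asxl2-201 and of Asxl2-202). All 5 are coding.
Clasp1 3-base: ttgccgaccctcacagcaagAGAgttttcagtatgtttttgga
Clasp2 3-base: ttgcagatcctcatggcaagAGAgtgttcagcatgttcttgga
Asxl1 3-base: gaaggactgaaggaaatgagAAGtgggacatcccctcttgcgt
Asxl2 3-base, first: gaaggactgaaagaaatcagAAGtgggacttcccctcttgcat
Asxl2 3-base, second: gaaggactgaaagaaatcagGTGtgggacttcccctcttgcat

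Other microexons come in pairs that sit between the same neighbouring bases in at least 1 annotated transcript of each exon. Those printed next were chosen because the choice within the pair carries results described below. They are the 4-base exons of the mitochondrial pyruvate carrier Mpc1 (chr17:8293415-8293418 and chr17:8296527-8296530, plus strand), the 5-base exons of the septin Sept7 (chr9:25264203-25264207 and chr9:25265302-25265306, plus strand), the 12-base exons of the membrane-scission GTPase Dnm2 (chr9:21489910-21489921 and chr9:21490658-21490669, plus strand) and the 15-base and 12-base exons of the trans-Golgi fusion protein Stx16 (chr2:174077338-174077352 and chr2:174084646-174084657, plus strand). All are annotated as coding.
Mpc1 4-base, first: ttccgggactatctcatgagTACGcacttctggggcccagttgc
Mpc1 4-base, second: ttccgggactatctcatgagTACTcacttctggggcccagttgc
Sept7 5-base, first: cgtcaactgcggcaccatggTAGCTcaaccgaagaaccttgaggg
Sept7 5-base, second: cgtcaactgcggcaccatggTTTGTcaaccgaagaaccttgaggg
Dnm2 12-base, first: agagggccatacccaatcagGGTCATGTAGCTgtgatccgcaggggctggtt
Dnm2 12-base, second: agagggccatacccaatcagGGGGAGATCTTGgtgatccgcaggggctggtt
Stx16 15-base: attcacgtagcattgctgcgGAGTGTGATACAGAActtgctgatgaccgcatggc
Stx16 12-base: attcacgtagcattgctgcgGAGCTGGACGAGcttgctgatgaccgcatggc

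The last set holds microexons of signalling, metabolic and cytoskeletal genes whose values are given below. Cd3e, the epsilon chain of the T cell receptor complex, has microexons of 18 bases (chr9:45007176-45007193, minus strand) and 15 bases (chr9:45005512-45005526) in a row, each printed inside the other's flank. The 13-base exon of Lcp2 (SLP-76, the adaptor below the T cell receptor) lies at chr11:34081720-34081732 on the plus strand. The 30-base exons of Ppp3ca (chr3:136932011-136932040, plus strand) and Ppp3cb (chr14:20503247-20503276, minus strand) sit at the same place of the 2 genes for the catalytic subunit of calcineurin, the phosphatase that activates NFAT. Further ones are the 12-base exon of the exchange factor Arhgef1 (chr7:24918520-24918531, plus strand), the 27-base exon of the lectin Lgals8 (chr13:12451401-12451427, minus strand), the 8-base exon of the glutathione transferase Gstt3 (chr10:75775490-75775497, minus strand), the 30-base exon of Acly, the enzyme that makes cytosolic acetyl-CoA (chr11:100503160-100503189, minus strand), the 18-base exon of the cofilin kinase Limk2 (chr11:3352900-3352917, minus strand) and the 6-base exon of Ap2m1, a subunit of the clathrin adaptor (chr16:20540808-20540813, plus strand).
Cd3e 18-base: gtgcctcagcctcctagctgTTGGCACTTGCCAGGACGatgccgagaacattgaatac
Cd3e 15-base: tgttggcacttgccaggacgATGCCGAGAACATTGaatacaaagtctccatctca
Lcp2 13-base: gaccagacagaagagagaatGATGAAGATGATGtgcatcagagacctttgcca
Ppp3ca 30-base: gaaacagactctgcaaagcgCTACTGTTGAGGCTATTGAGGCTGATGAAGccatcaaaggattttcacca
Ppp3cb 30-base: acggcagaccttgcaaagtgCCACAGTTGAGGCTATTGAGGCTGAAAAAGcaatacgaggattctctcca
Arhgef1 12-base: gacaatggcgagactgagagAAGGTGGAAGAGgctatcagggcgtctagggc
Lgals8 27-base: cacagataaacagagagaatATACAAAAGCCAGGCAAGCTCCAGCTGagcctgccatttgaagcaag
Gstt3 8-base: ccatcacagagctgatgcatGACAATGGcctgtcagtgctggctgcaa
Acly 30-base: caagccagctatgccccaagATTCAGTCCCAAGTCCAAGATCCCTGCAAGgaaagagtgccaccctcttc
Limk2 18-base: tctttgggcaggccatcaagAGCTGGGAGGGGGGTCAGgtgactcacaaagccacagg
Ap2m1 6-base: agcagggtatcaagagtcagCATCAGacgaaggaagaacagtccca

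Some facts of the libraries touch every result. Each library held 56016533 to 94801105 counts in annotated genes. The RNA concentration in the labels, given without a unit, did not overlap between groups (34.9 to 197.1 for the control guide, 10.1 to 24 for the Tardbp guide), so the guide and the amount of RNA cannot be told apart. Markers of CD8 T cells were high in every library, summing to 3504 to 4381 CPM (counts scaled to the same total in every library) over 7 genes in Control gRNA and to 5339 to 6836 with the Tardbp guide. The 2 CD4 markers summed to 1.01 to 9.72 and 1.76 to 6.82 CPM, and Cd4 averaged 0.230 and 0.220 CPM. The 5 myeloid markers summed to 14.8 to 35.1 and 19.0 to 79.1 CPM, and the 4 red cell markers to 0.214 to 10.8 and 6.17 to 112 CPM. The 5 B cell markers summed to 6.85 to 13.1 and 7.28 to 18.4 CPM. Of the 5 neuronal markers, Rbfox3 and Srrm4 were at 0 counts in every library, and Tubb3 made up nearly all of a sum of 17.2 to 29.7 CPM in Control gRNA and 5.74 to 13.9 CPM in Tardbp gRNA. The part of other cells or of RNA amount in the results was not tested, and in bulk RNA fewer cells of a type cannot be told from less RNA per cell.

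The microexons favoured lengths that keep the reading frame. Of the 875, 496 had a length that is a multiple of 3 (56.7%), against 38.6% of core exons of 31 bases or more. Exons of 30 bases were the most frequent (110), followed by 27 bases (86) and 24 bases (84), and 12 exons had only 3 bases. Just inside the limit lay 57 exons of 29 bases, and just outside it 85 of 31 bases and 81 of 32. The annotation placed 813 in coding sequence, 16 partly so, 25 in untranslated regions and 5 in noncoding transcripts. Another 10 were part of a longer annotated exon, and 6 could be assigned to no single gene. In their letters they were slightly richer in purines than longer exons (median 58.3% against 52.9%, over 860 and 97594 annotated exons) and slightly poorer in G and C (median 47.8% against 50.4%), and the last exon base was a G in 77.1% and 80.6%.

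In Control gRNA most microexons were included nearly always, but far more of them than of longer exons were nearly always skipped. The median Psi was 0.940 against 0.986 for longer exons. A Psi over 0.9 was found for 521 microexons (59.5% against 88.3%), a Psi of 0.1 to 0.9 for 187 (21.4% against 11.1%) and a Psi under 0.1 for 167 (19.1% against 0.627%). An annotated transcript that skips the exon existed for 373 microexons (42.6%), against 12% of longer exons. The groups that were skipped or mixed were also the richest in frame-keeping lengths, at 73.7% of those with a Psi under 0.1, 69.0% of those from 0.1 to 0.9 and 46.8% of those over 0.9, and the middle class compared with 41.4% in longer exons.

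Inclusion was higher in the longer classes. The median Psi in Control gRNA was 0.124 for the 89 exons of 3 to 9 bases and 0.126 for the 99 of 10 to 15 bases. It was 0.906 for the 146 exons of 16 to 21 bases, 0.966 for the 328 of 22 to 27 bases and 0.981 for the 213 of 28 to 30 bases. The mean Psi differed less sharply between the same 5 classes, at 0.412, 0.458, 0.630, 0.795 and 0.869, and a Psi over 0.9 was found for 25.8%, 32.3%, 51.4%, 69.2% and 77.0% of them. Within the shortest class both extremes were present. Among the 12 exons of 3 bases, Psi was 0.972 in Clasp1, 0.934 in Asxl1, 0.562 in Clasp2, 0.466 and 0.387 in the first and second exons of Asxl2, and 0.0906 in Mon2, which encodes a Golgi trafficking protein. The identical letters AGA thus had different Psi in the paralogs Clasp1 and Clasp2, and so did AAG in Asxl1 and the first exon of Asxl2.

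**Figure D1:**
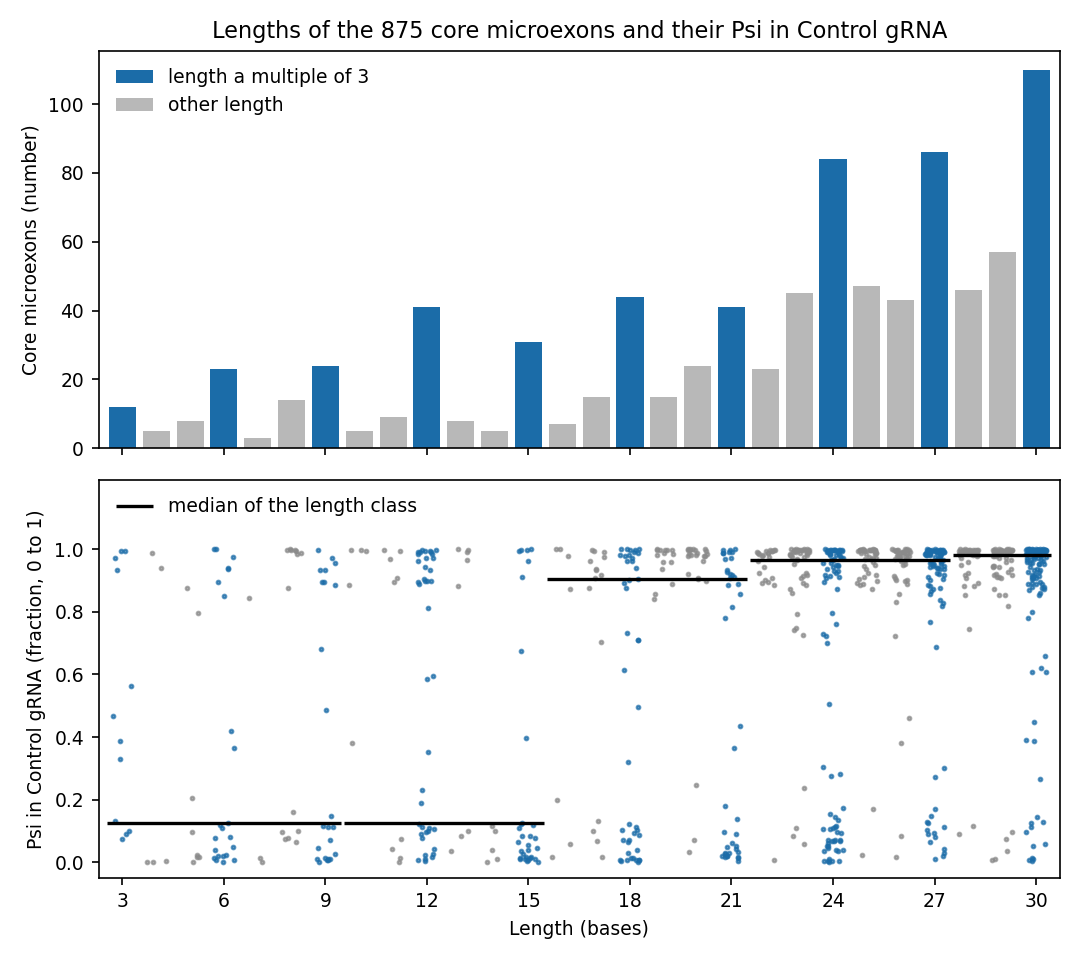
Upper panel, number of core microexons (y axis) at each length in bases (x axis), with multiples of 3 in blue and other lengths in grey. Lower panel, Psi in Control gRNA (fraction, y axis) of each microexon against its length, with the median of each length class as a black line, which lies at 0.124 and 0.126 for the 2 shortest classes and at 0.906 or more for the other 3.

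By gene list, most microexons of T cell signalling genes had a high Psi. The list of receptor, costimulation and cytokine signalling genes held 31 microexons in 19 genes, of which 25 had a Control Psi over 0.9, and the median was 0.993. Over all microexons 59.5% had a Control Psi over 0.9, and in hosts of at least 50 CPM 73.1% did. The exons of 18 and 15 bases in Cd3e had a Psi of 1 and 0.999, and those of 26, 20 and 13 bases in Lcp2 had 0.999 each. Those of the adaptors Fyb (0.992 to 0.997) and Lat (0.993 and 0.999), the phosphatase Ptprc (CD45, 0.998 and 0.998) and the exchange factor Vav1 (0.998) were as high. Only 4 were under 0.1, namely both 6-base exons of Git2 (0.0240 and 0.00719), the 21-base exon of the scaffold Dlg1 (0.0608) and the 30-base exon of Ppp3ca (0.0144). The matching exon of Ppp3cb, in contrast, had a Psi of 0.915.

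Genes that are described as holding microexons in other tissues stood at the other end. Their 69 microexons in 36 genes had a median Control Psi of 0.0838, and 41 were under 0.1. In vesicle traffic genes the median was 0.0708 over 28 microexons in 23 genes, of which 16 were under 0.1. Examples were the 24-base exon of the membrane-bending protein Bin1 (0.00239), the 24-base exon of Sh3glb1 (0.00327) and the 9-base exon of the small GTPase exchange factor Madd (0.00756), while the 6-base exon of Ap2m1 was mixed at 0.418. In cytoskeletal and motor genes the median was 0.0951 over 46 microexons in 21 genes, of which 25 were under 0.1, including all 4 of the dynactin subunit Dctn1 (0.00954 to 0.0192). Transcription and chromatin genes had a median of 0.330 over 18 microexons in 12 genes. RNA-binding and translation genes had 13 in 10 genes with a median of 0.992, among which the 18-base exon of Ewsr1 was at 0.000724 and those of the translation factors Eif4g1 and Eif4g3 at 0.0179 to 0.0204. The lists overlap and were not matched for exon length or host expression, so their medians are descriptions, and the part of either in them was not tested.

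Psi near 0 or 1 tracked the expression of the host gene, which limits how small differences there can be read. Among the 167 microexons with a Control Psi under 0.1, the Spearman correlation of Psi with host CPM was -0.765, a description over exons that share one estimate per group. The median Psi was 0.0927 for the 12 in hosts under 10 CPM, 0.0498 for the 79 at 10 to 50 CPM, 0.0116 for the 60 at 50 to 200 CPM and 0.00185 for the 13 at 200 CPM or more. Among the 521 with a Psi over 0.9, the distance from 1 had a Spearman correlation of -0.804 with host CPM and a median of 0.0796, 0.0237, 0.00478 and 0.00086 in the same classes. These classes leave out 3 of the 167 and 1 of the 521, which could be assigned to no single gene. The lower the host gene, the farther both kinds lay from their end. Between the groups, Psi of the 167 was higher in Tardbp gRNA for 64 of 72 in hosts with lower counts in that group (88.9%, by the edgeR test described below) and for 10 of 33 in hosts with higher counts (30.3%), beside 46 of 62 in hosts that did not pass (74.2%). In the 521 it was lower in Tardbp gRNA for 151 of 163 in hosts with lower counts (92.6%) and for 37 of 143 in hosts with higher counts (25.9%), beside 145 of 215 in hosts that did not pass (67.4%). Microexons without a tested host gene are counted with those whose host did not pass. The direction of small differences at the ends thus differed with that of the host gene, most were toward the middle where the host did not pass, and the part of read number in them was not tested.

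Between the groups, most microexons kept their Psi. The difference was under 0.02 in size for 645 of 875 (73.7%, against 83.0% of longer exons), and its median size was 0.00639 against 0.00402. A difference over 0.1 was found for 36 microexons (4.11%), 16 higher in Tardbp gRNA (1.83%) and 20 lower (2.29%). The background over core exons of 31 bases or more was 0.902%, with 0.415% higher and 0.487% lower. The share among microexons was thus above the background in both directions, in a set with many more exons of middle Psi. Among exons with a Control Psi of 0.1 to 0.9 it was 17.1% of 187 microexons against 6.74% of longer exons. Within that class in hosts of at least 10 CPM it was 14.4% of 104 against 9.11%. The median Control Psi in the class was 0.709 for microexons and 0.877 for longer exons. In hosts of at least 10 CPM it was 0.529 and 0.851, so these shares are not compared at equal Psi.

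Much of this stood in genes with few reads. In host genes of at least 10 CPM, 18 of 708 microexons differed by over 0.1 (2.54%, against 0.481%), and in those of at least 50 CPM 2 of 375 did (0.533%, against 0.171%), namely Acly and Mapk8ip3. The widest difference of all was in the 16-base exon of the interleukin receptor Il17re, from 0.874 to 0.320, in a gene with a mean of 0.899 CPM. No exon with a Control Psi under 0.1 was higher in Tardbp gRNA by more than 0.1. All 4 of the exons of 3 to 9 bases with a difference over 0.1 were higher in Tardbp gRNA, and both of 10 to 15 bases were lower, which are small counts.

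**Figure D2:**
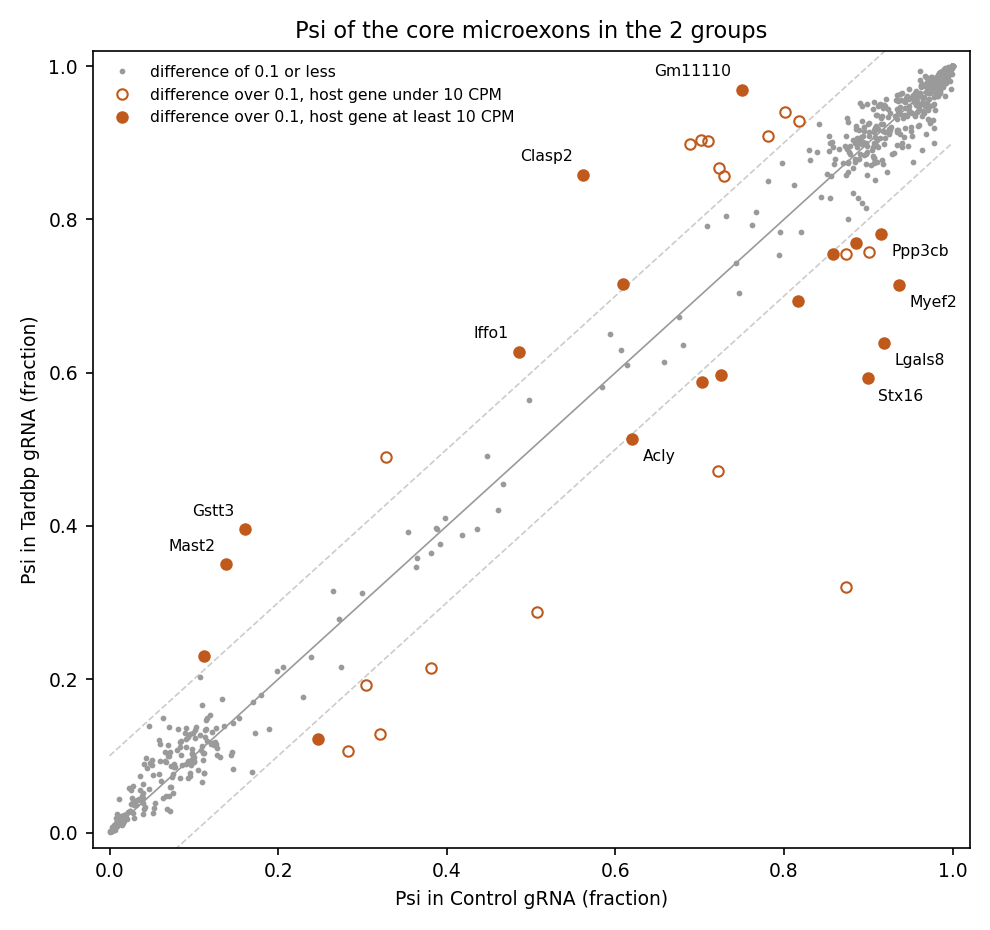
Psi in Tardbp gRNA (fraction, y axis) against Psi in Control gRNA (fraction, x axis), 1 point per core microexon, with filled circles for a difference over 0.1 in host genes of at least 10 CPM, open circles for one in lower hosts, and dashed lines at a difference of 0.1. Most points lie close to the diagonal, and 16 lie above it and 20 below it by over 0.1.

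Among exons with a lower Psi in Tardbp gRNA in host genes of at least 10 CPM, those of Stx16 and Lgals8 had the widest differences. The 12-base exon of Stx16 went from a Psi of 0.899 to 0.593, and the 27-base exon of Lgals8 from 0.919 to 0.639. Myef2, an RNA-binding repressor, had a 27-base exon in an untranslated region (exon 18 of 19 of Myef2-209, chr2:125087677-125087703) that went from 0.936 to 0.715. Ppp3cb went from 0.915 to 0.781. Next came the exons of 2700062C07Rik (23 bases, 0.725 to 0.597), Lyrm5 (20 bases, 0.247 to 0.122, part of a longer annotated exon), the formin Diaph2 (21 bases, 0.817 to 0.693), the C-mannosyltransferase Dpy19l1 (25 bases, 0.886 to 0.769) and the uridine kinase Uckl1 (17 bases, 0.702 to 0.588), and Acly was the last of the 10 widest, from 0.620 to 0.514. Of the 10, 6 had a length that keeps the frame.

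Among exons with a higher Psi, the 3-base exon of Clasp2 was first, from 0.562 to 0.859, while its twin in Clasp1 went from 0.972 to 0.929. The 8-base exon of Gstt3, which shifts the frame, went from 0.161 to 0.395, and the 23-base exon of the noncoding gene Gm11110 from 0.750 to 0.969. The 21-base exon of the kinase Mast2 went from 0.138 to 0.350, the 9-base exon of the nuclear protein Iffo1 from 0.486 to 0.628 and the 18-base exon of the JNK scaffold Mapk8ip3 from 0.112 to 0.231. The last 3 of the 10 widest were under 0.1 in size. They were the 24-base exon of the centrosome protein Cspp1 (0.108 to 0.203), a 24-base exon of Clasp1 (chr1:118541675-118541698, 0.0464 to 0.138) and the 18-base exon of the Mediator subunit Med23 (0.0634 to 0.150). In Clasp1 the other 3 microexons with a low Psi lay close to that exon, at 0.0366 to 0.0432 with the control guide and 0.0743 to 0.0975 with the Tardbp guide, where the gene's counts were lower. Clasp2 had 3 low microexons as well, at 0.0690 to 0.0713 and 0.1 to 0.105.

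In T cell signalling genes, 1 of the 31 microexons differed by over 0.1, that of Ppp3cb. The 16-base node of the kinase Mapk14 (0.199 and 0.210, part of a longer annotated exon) and the 12-base exon of Arhgef1 (0.593 and 0.650) were the other members of that list with a middle Psi. In the RNA-binding and translation list the widest difference was 0.00768. Of the regulators of short exons, 2 hold a microexon themselves: the 26-base exon of Hnrnpc in an untranslated region went from 0.461 to 0.420, and the 24-base exon of Pcbp2 lay at 0.996 and 0.995.

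The pairs that can share their neighbours showed, for most genes, a similar choice in both groups. There were 24 such pairs in 23 genes, 20 of them of equal length, found as microexons of 1 gene that have the same adjoining 20 bases on each side in at least 1 annotated transcript of each, while other transcripts can have other neighbours. In 15 pairs the 2 Control Psi differed by over 0.5, and in 5 both were under 0.2. In Dnm2 the second exon had 0.971 and the first 0.00239, in Pitpna, a phosphatidylinositol transfer protein, the 8-base exon had 0.999 and the 11-base exon 0.00168, and in Sel1l, an adaptor of protein quality control, the exons had 0.981 and 0.00798. The values of a pair often added up to about 1 in Control gRNA, as in Pitpna (1), Sept7 (1) and Mpc1 (0.994). Stx16 stood apart, since its pair added up to 1.01 under the control guide and to 0.706 under the Tardbp guide. Its 12-base exon had 0.899 and 0.593, and its 15-base exon 0.109 and 0.114. In Asxl2 the sum was 0.853 and 0.852. The 30-base exons of Ermard have 3 copies, of which 2 are identical in sequence and the other differs by A12G, so reads could be split among them and their values are uncertain.

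**Figure D3:**
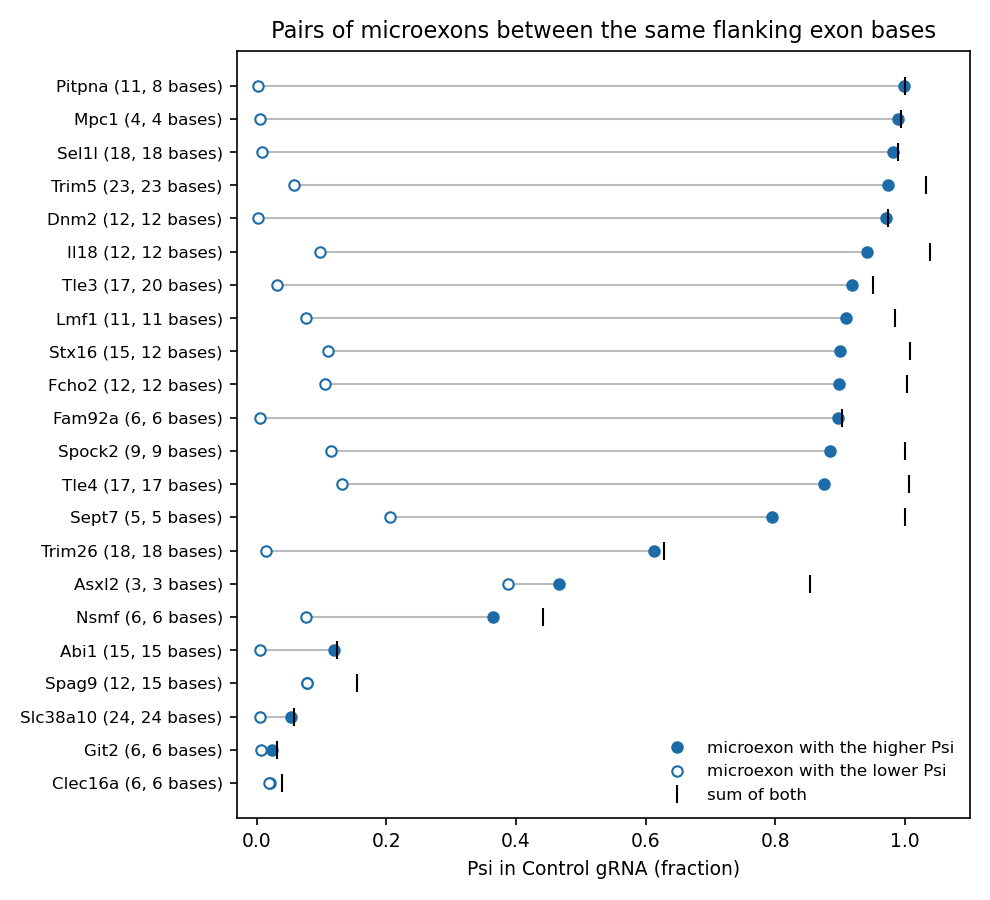
Psi in Control gRNA (fraction, x axis) of both exons of each pair of microexons with the same neighbouring bases in at least 1 transcript of each, 1 line per pair (y axis, gene and lengths), with the sum of the pair as a tick and without Ermard, whose copies are alike. In 15 pairs the exons lie over 0.5 apart, and in most of these the tick stands near 1.

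To obtain a measure with replicates, the deposited counts of transcripts were used to rebuild the inclusion of an exon library by library. It is the share of length-scaled counts in transcripts that hold the exon among those that hold or skip it, so it follows all exons of a transcript and needs an annotated transcript of each kind. This gave 334 microexons among 15649 nodes of all types, tested together with limma. No microexon (0 of 334) passed both limits, which were a difference wider than 0.1 and an adjusted p under 0.05, where the background over all nodes was 0.236%. At the unadjusted p under 0.05 there were 33 (9.88%, against 9.69% of all nodes), and at the adjusted p alone there was 1, against a background of 0.639%. A difference over 0.1 in size was present for 44, of which 30 were higher in Tardbp gRNA, with the widest at 0.435. The same count and its directions over all nodes were not taken, so neither is read as a trait of microexons. The libraries of a group spread widely, with a median SD of 0.16 over the 119 with a middle inclusion.

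The microexon past the adjusted p, the 18-base exon of Limk2, was named after its values were seen. In Control gRNA its rebuilt inclusion ran from 0.0480 through a median of 0.0748 to 0.0888, and in Tardbp gRNA from 0.0901 through 0.117 to 0.147. The groups did not overlap, which held for 1 of the 334. The share over all nodes was not counted, so this is a description of the exon only. The means were 0.0712 ± 0.0161 and 0.118 ± 0.0170 (SD, n = 8 per group), a difference of 0.047 (SE 0.0082, limma adjusted p 0.0128). Its Psi was far lower, at 0.00748 and 0.00880. The limma adjusted p was 0.139 in the libraries numbered 4 to 8 and 0.91 with RNA concentration as a covariate. That concentration did not overlap between the groups, so the setting cannot tell the guide from the amount of RNA.

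For the exons that differed most in Psi, the libraries overlapped. Stx16 ran from 0.184 through a median of 0.763 to 1 in Control gRNA and from 0.114 through 0.739 to 0.831 in Tardbp gRNA. The direction was that of Psi, but the difference of -0.067 was smaller than the spread (SE 0.12, limma adjusted p 0.888). Each group held 1 library far below the others, and the difference was -0.145 without the one in Control gRNA (numbered 3) and 0.0111 without the one in Tardbp gRNA (numbered 1). Ppp3cb ran from 0.381 through 0.646 to 1 and from 0.267 through 0.617 to 0.854, a difference of -0.047 (SE 0.097, limma adjusted p 0.912). Acly was the member with the most reads among the named exons with a lower Psi, at a mean of 337 CPM. It ran from 0.301 through 0.505 to 0.589 and from 0.291 through 0.396 to 0.543, with means of 0.496 ± 0.0866 and 0.425 ± 0.0934 (SD, n = 8 per group) and a difference of -0.071 (SE 0.044, limma adjusted p 0.690). These 3 exons were lower in Tardbp gRNA by both measures, and none passed the test. Diaph2 went the other way from its Psi, from 0.448 through 0.989 to 1 in Control gRNA and from 0.781 through 0.987 to 1 in Tardbp gRNA, a difference of 0.129 (SE 0.0890, limma adjusted p 0.721). Lgals8, Myef2 and Dpy19l1 have no annotated transcript that skips the exon and could not be rebuilt.

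Among the exons with a higher Psi, Gstt3 had the smallest adjusted p of the named ones. It ran from 0.00304 through 0.0336 to 0.101 in Control gRNA and from 0.0378 through 0.104 to 0.165 in Tardbp gRNA, with means of 0.0466 ± 0.0349 and 0.103 ± 0.0458 (SD, n = 8 per group). The difference of 0.056 (SE 0.020, limma adjusted p 0.297) had the direction of Psi, and the groups overlapped. Cspp1 ran from 0.0886 through 0.171 to 0.276 and from 0.169 through 0.212 to 0.350 (difference 0.069, SE 0.033, limma adjusted p 0.533). The 3-base exon of Clasp2, whose Psi was higher by the widest margin, had a rebuilt inclusion of 0 in 15 of the 16 libraries and 0.00107 in the other. Mapk8ip3 lay at a mean of 0.799 ± 0.285 in Control gRNA where Psi was 0.112. In 3 further exons the rebuilt difference was opposite to that of Psi, at -0.031 for Iffo1 (SE 0.078, limma adjusted p 0.933), -0.037 for the 24-base exon of Clasp1 (SE 0.15, limma adjusted p 0.967) and -0.038 for Med23 (SE 0.047, limma adjusted p 0.813).

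The highest-expressed named exon, the 12-base exon of Arhgef1 (mean of 793 CPM), ran from 0.612 through 0.652 to 0.686 in Control gRNA and from 0.450 through 0.602 to 0.659 in Tardbp gRNA. Its means of 0.652 ± 0.0290 and 0.585 ± 0.0706 (SD, n = 8 per group) gave a difference of -0.067 (SE 0.026, limma adjusted p 0.382), opposite to the direction of Psi. The Mapk14 node differed by -0.067 (SE 0.033, limma adjusted p 0.545), also opposite to Psi. A 24-base exon of the phosphoinositide phosphatase Synj1 (chr16:90971564-90971587), named after its values were seen, had means of 0.525 ± 0.0486 and 0.688 ± 0.111 (SD, n = 8 per group) and a limma adjusted p of 0.101. It passed both limits in 2 settings, with counts not divided by transcript length (difference 0.105, limma adjusted p 0.0448) and without the Tardbp library numbered 6 (difference 0.128, limma adjusted p 0.0438). Its Psi was 0.0397 and 0.0521.

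**Figure D4:**
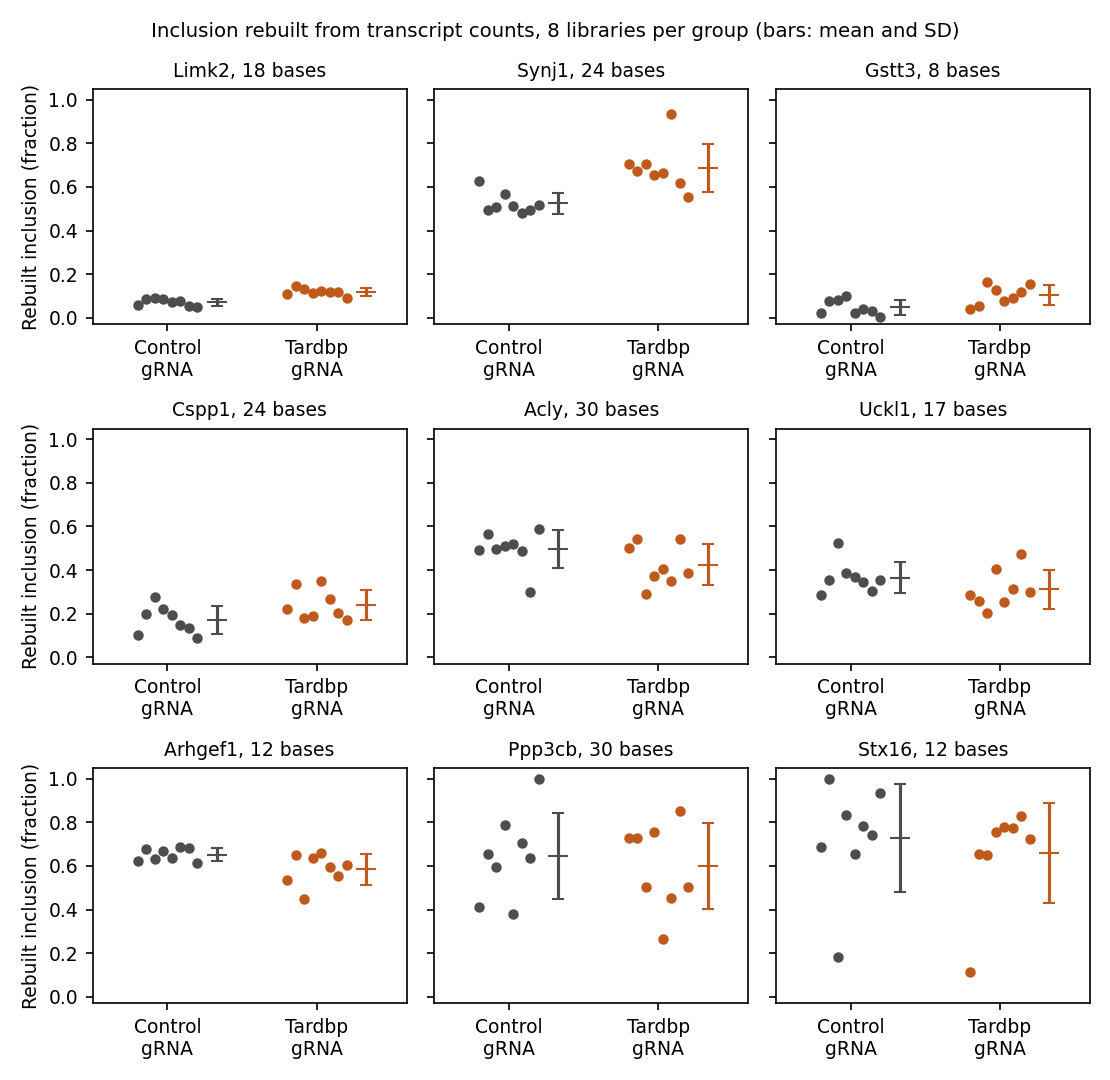
Rebuilt inclusion (fraction, y axis) of named microexons in each library (points, 8 per group), with the mean and SD beside them. The points of Limk2 do not overlap between groups (0.0480 to 0.0888 and 0.0901 to 0.147), and those of Stx16 spread from 0.184 to 1 and from 0.114 to 0.831.

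The 2 measures differed widely for a number of exons. Over the 334 microexons the Pearson r of Control Psi and mean rebuilt inclusion was 0.802, a description over exons of the same libraries. They lay within 0.1 of each other for 203 and over 0.5 apart for 33. Of the 18 rebuilt exons with a Psi difference over 0.1, 14 had the same direction in both measures, also where the rebuilt difference was near 0. That was so for 2700062C07Rik (-0.0030, SE 0.0059) and Lyrm5 (-0.00095, SE 0.023). None of the 18 passed the test, and the same count over longer exons was not made. Of the 20 pairs with both exons rebuilt, 18 kept their order and 2 had the opposite one. In Mpc1 the second exon had a Psi of 0.989 and a rebuilt inclusion of 0.0130, while the first had 0.00504 and 0.994. These exons differ only by G4T, counted from 1 at the 5′ end of the exon with the first exon's base given first. In Sept7 the first exon had a Psi of 0.795 and a rebuilt inclusion of 0.0333, and the second 0.206 and 0.818. For these exons which of the 2 was the major one in these cells depended on the measure. A kept order did not always mean similar values. In Control gRNA the second exon of Dnm2 had a Psi of 0.971 and a rebuilt inclusion of 0.374. The 6-base exon of Fam92a at chr4:12165766-12165771 had 0.897 and 0.0498, while the 8-base exon of Pitpna had 0.999 by both.

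The host genes were expressed at higher levels than other genes, which bears on how often they passed a test. Of the 710, 708 were tested with edgeR and 407 passed an adjusted p under 0.05 (57.5%), 187 higher in Tardbp gRNA (26.4%) and 220 lower (31.1%). The background over 16650 genes was 46.7%, with 23.5% higher and 23.3% lower. The median level was 38.1 CPM for host genes and 11.3 CPM for all genes tested, and in genes of at least 10 CPM the shares were alike, at 61.8% of 566 host genes and 62.4% of 8611 genes. With RNA concentration as a covariate 162 passed, 55 higher and 107 lower. The share over all genes was not taken in that setting, so these counts are not read as a trait of host genes.

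Of all genes of at least 10 CPM, 37.1% were lower and 25.3% higher in Tardbp gRNA, and of all genes tested 23.3% and 23.5%. The counts in the functional lists cover every tested gene of a list with no limit on CPM, and are given beside these shares as descriptions. In the cytoskeletal and motor list, 40 of 72 tested genes were lower and 6 higher in Tardbp gRNA (median log2 fold change -0.274), and in the RNA-binding and translation list 45 of 77 were lower and 10 higher (-0.207). In vesicle traffic genes 30 of 78 were lower and 18 higher (-0.102), in genes known for microexons 29 of 80 and 17 (-0.105), in transcription and chromatin genes 27 of 80 and 22 (-0.0749), and in T cell signalling genes 28 of 92 and 25 (-0.0325). The median over all genes tested was 0.0464.

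Several named host genes differed in level between the groups. Acly fell by 0.73 on the log2 scale (SE 0.069, edgeR adjusted p 2.15e-07), Clasp2 by 0.77 (SE 0.12, edgeR adjusted p 4.72e-05), Clasp1 by 0.67 (SE 0.086, edgeR adjusted p 4.63e-06) and Med23 by 0.44 (SE 0.11, edgeR adjusted p 0.00223). Gm11110 rose by 1.84 (SE 0.10, edgeR adjusted p 2.19e-09). Stx16 rose by 0.55 (SE 0.13, edgeR adjusted p 0.00140), Uckl1 by 0.54 (SE 0.087, edgeR adjusted p 5.85e-05), Lyrm5 by 0.48 (SE 0.076, edgeR adjusted p 4.93e-05), Lgals8 by 0.34 (SE 0.099, edgeR adjusted p 0.00868) and Cspp1 by 0.25 (SE 0.084, edgeR adjusted p 0.0195, lost in 5 of 23 other settings). Gstt3 fell by 0.49 (SE 0.18, edgeR adjusted p 0.0318, lost in 7 of 23) and Myef2 by 0.23 (SE 0.077, edgeR adjusted p 0.0183). Ppp3cb did not pass (log2 fold change 0.08, SE 0.078, edgeR adjusted p 0.415).

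Of the proteins that read short exons, the targeted gene is given first, as a check of the labels. Tardbp (chromosome 4, 148612382 to 148627019, minus strand) ran from 171.8 through a median of 198.4 to 206.9 CPM in Control gRNA and from 110.4 through 136.4 to 147.2 CPM in Tardbp gRNA. No Tardbp library reached a Control library, and the log2 fold change was -0.51 (SE 0.056, edgeR adjusted p 8.07e-07). Ptbp1, the repressor of neuronal microexons, was also lower. It ran from 446 through 495 to 512 CPM and from 224 through 314 to 419 CPM without overlap (log2 fold change -0.62, SE 0.086, edgeR adjusted p 1.15e-05). Its relative Ptbp2 lay at medians of 10.1 and 11.9 CPM with overlapping groups (0.21, SE 0.083, edgeR adjusted p 0.04998, lost in 15 of 23 other settings). Ptbp3 did not pass (-0.02, SE 0.063, edgeR adjusted p 0.801).

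The promoters of the neuronal program were near absent in both groups. Srrm4 had 0 counts in all 16 libraries, Srrm3 reached at most 0.0284 CPM, and the neuronal regulators Rbfox1, Rbfox3 and Nova2 had 0. The broadly expressed relatives Srrm1 and Srrm2 were present at medians of 205.9 and 269.9 CPM in Control gRNA. Srrm1 was lower in Tardbp gRNA, at a median of 180.9 CPM without overlap (-0.17, SE 0.035, edgeR adjusted p 5.37e-04), and Srrm2 did not pass (0.11, SE 0.046, edgeR adjusted p 0.05001). Among the muscleblind proteins, Mbnl3 was lower (-0.50, SE 0.063, edgeR adjusted p 4.17e-06), Mbnl1 was lower by less (-0.16, SE 0.060, edgeR adjusted p 0.0348, lost in 8 of 23 other settings) and Mbnl2 was higher (0.38, SE 0.14, edgeR adjusted p 0.0390, lost in 14 of 23). Hnrnpa1 was the other regulator past 0.5 in size (-0.55, SE 0.073, edgeR adjusted p 7.24e-06). In all, 38 regulators were listed, 30 were tested and 20 passed, 5 higher and 15 lower. Of all genes of at least 10 CPM 62.4% passed, 25.3% higher and 37.1% lower, and the counts of regulators are descriptions beside these shares. With RNA concentration as a covariate 7 passed, all 7 lower, and the share over all genes was not taken in that setting.

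**Figure D5:**
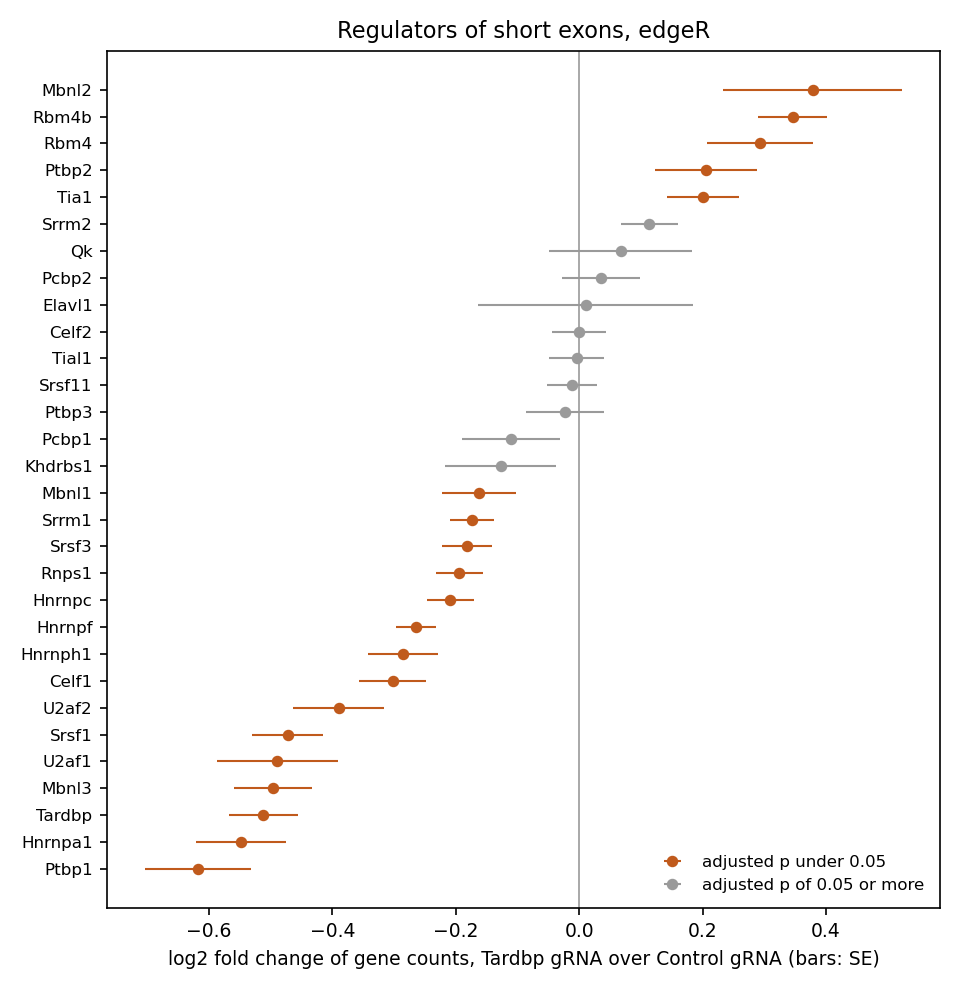
Log2 fold change of gene counts, Tardbp gRNA over Control gRNA (x axis, bars give the SE), of the 30 tested regulators of short exons (y axis), with those at an edgeR adjusted p under 0.05 in orange and the others in grey. Ptbp1 (-0.62), Hnrnpa1 (-0.55) and Tardbp (-0.51) are the lowest, and 15 of the 20 that passed are lower. Of all genes of at least 10 CPM, 37.1% were lower and 25.3% higher.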

How the data were processed

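The authors made cDNA with the SMART-Seq v4 kit, prepared libraries with Nextera XT and sequenced pairs of 100 bases, with 29714709 to 48164083 read pairs per library according to the labels. Reads were aligned to mm10, and the submitters' processing notes name HISAT2 2.1.0 and StringTie 2.1.0. The deposited gene and transcript tables hold estimated counts that the authors derived from StringTie coverage, written as whole numbers. The authors' deposited Psi is a fraction from Whippet, with 1 value per group, and the first group was read as Control gRNA from the study's text. Columns holding the authors' own difference and probability, the complexity and entropy columns, and 10 columns of other samples in each count table were not used. The labels give collection after 4 days and the study's methods a shorter time. No read number stands behind a Psi value, so no interval was given. Counting precision of the gene table is set by 56016533 to 94801105 counts per library.

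Microexon coordinates were matched to GENCODE M21 transcripts (GRCm38), which gave an exact exon for 859 of 875, and sequences were read from that release's transcripts. The table writes 1 symbol as a date in 2 nodes, which were read as Sept7 from their coordinates. Gene and transcript tables were limited to 55536 genes and 141862 transcripts of the annotation, while 26345 lines that name no annotated gene, with 0.0836 to 0.132% of counts per library, were left out. Gene counts were tested with edgeR 4.0.16 (TMM, filterByExpr with a minimum count of 10 and a minimum total of 15, quasi-likelihood test, two-sided, Benjamini-Hochberg over all genes). Rebuilt inclusion was tested with limma 3.58.1 over all nodes with a mean spanning count of at least 50, two-sided with the same adjustment. R 4.3.3 and Python 3.11.15 were used, and both fits were tested on simulated data. Alternatives were DESeq2 1.42.0, other size factors, no filter, other count minimums, unscaled counts and an arcsine scale. Further ones were the replicate number as a block, the letter M or F or RNA concentration as a covariate, subsets of libraries and each library left out. The labels give replicates as separate samples without naming the animals, so p-values measure the spread between libraries.

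The members and all gene lists were chosen with earlier results of these data known. Named microexons were the 10 widest rises and 10 widest falls of Psi in host genes of at least 10 CPM, any called on rebuilt inclusion, and those of T cell signalling genes with a Psi of 0.1 to 0.9 in either group. Of the 10 widest rises, 1 is not reported here. Named genes were Tardbp, regulators that passed with a log2 fold change over 0.5 in size, the PTB, MBNL and SRRM members, and the hosts of named microexons where they passed. Other exons were printed as examples of their group after their values were seen.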

Additional observations from a re-analysis of the deposited data

Results flagged for a closer look

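In 82 groups of 8 libraries (rebuilt inclusion of the named microexons and CPM of the named genes), 14 had 1 library far from the other 7, by the ratio of its gap to the group's range. For normally spread values chance gives about 1 in 20 groups. Rebuilt inclusion is bounded at 0 and 1, and where the other libraries all sit at a bound, as in Clasp2, any other value is flagged. The count is therefore not read against that share. Explanations were not tested.

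In Control gRNA, the library numbered 3 had a rebuilt inclusion of 0.184 for the 12-base exon of Stx16 (others 0.656 to 1) and of 0.523 for Uckl1 (others 0.287 to 0.387). The library numbered 7 had 0.959 for 2700062C07Rik (others 0.991 to 1), 0.191 for Lyrm5 (others 0.0421 to 0.0832) and 0.301 for Acly (others 0.488 to 0.589). The library numbered 8 had 0.196 for Mapk8ip3 (others 0.655 to 1), 0.00107 for the 3-base exon of Clasp2 (others 0) and 39.7 CPM of Clasp1 (others 49.3 to 57.9). Lyrm5 was at 10.8 CPM in the library numbered 4 (others 7.82 to 8.58).

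In Tardbp gRNA, the 12-base exon of Stx16 had 0.114 in the library numbered 1 (others 0.65 to 0.831), the Diaph2 exon 0.781 in that numbered 5 (others 0.97 to 1) and the 24-base exon of Synj1 0.934 in that numbered 6 (others 0.554 to 0.704). The library numbered 3 had 110 CPM of Tardbp (others 130 to 147) and 66.6 CPM of Uckl1 (others 49.5 to 57.4). Each group of Stx16 thus held 1 library with a far lower inclusion than its other 7.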

How the results depend on the processing

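The count of microexons with a Psi difference over 0.1 depended on the limits set. It was 77 (40 higher, 37 lower) at a difference over 0.05 and 12 (6 and 6) at one over 0.2. It was 6 (4 and 2) up to 15 bases, 18 (7 and 11) in hosts of at least 10 CPM and 2 (1 and 1) at 50 CPM. The share of lengths that are a multiple of 3 was 52.7% among members with a Control Psi of at least 0.1. On rebuilt inclusion 1 microexon was called with counts not divided by length, 0 to 1 with single libraries left out, and 0 in the other settings, including one that counts only transcripts with exactly this exon (325 tested), which was chosen after seeing the data. Over all nodes 2 (RNA concentration as a covariate) to 45 were called. Host genes called were 162 (55 higher, 107 lower) with RNA concentration and 390 to 414 (163 to 189 higher, 214 to 238 lower) with single libraries left out. Regulators called were 7 (0 higher, 7 lower) with RNA concentration and 18 to 21 (3 to 6 higher, 14 to 15 lower) with single libraries left out, and 3 were higher without a filter. For host genes and regulators, the shares over all genes were not taken in these settings. RNA concentration did not overlap between the groups, so the setting that holds it cannot tell the guide from the amount of RNA. The causes were not tested.

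Among 978 values of single microexons and genes in other settings, 886 kept direction and side of the threshold and 27 changed direction, none of which had passed a test. With RNA concentration, the rebuilt difference was 0.019 for Stx16, 0.0372 for Lyrm5, -0.0911 for Diaph2, -0.0142 for Mast2, -0.0303 for Cspp1 and 0.0585 for Med23, and the log2 fold change of Ptbp3 was 0.0753. In the libraries numbered 4 to 8, the rebuilt difference was 0.0063 for Iffo1 and 0.0432 for the 24-base exon of Clasp1. The log2 fold change of Ptbp3 was 0.0335 there. The rebuilt difference of Lyrm5 was 0.00557 with unscaled counts, and that of Cspp1 was -0.0102 with the exact exon only. With single libraries left out, the rebuilt difference ran from -0.145 to 0.0111 for Stx16 and from -0.085 to 0.00349 for Ppp3cb. It ran from -0.014 to 0.0157 for Lyrm5 and from -0.11 to 0.035 for the 24-base exon of Clasp1. The log2 fold change of Ptbp3 ran from -0.0787 to 0.0047.

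The groups share replicate numbers, but deviations of same-numbered libraries correlated at -0.0048 to 0.16 and 2 of 8 correlated best with their own number, so the numbers were not taken as pairs. With the replicate block 0 microexons and 12 of all nodes (37 without it) were called, and 407 host genes and 20 regulators. Without a genome sequence the intron motifs, splice site letters and both alternatives on them (a wider window and a longer motif) were not run.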
